A study of Mus musculus with 6 samples.

Results

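Prolactin and growth hormone act through a pair of related single-pass receptors, encoded by Prlr and Ghr. Neither receptor is an enzyme. Each carries the tyrosine kinase Jak2, which phosphorylates the transcription factors Stat5a and Stat5b, and these enter the nucleus and switch on target genes. In the mammary gland prolactin and Stat5 drive the growth of milk-producing alveoli, and Elf5, an ETS-family transcription factor of alveolar and luminal progenitor cells, lies downstream of the prolactin receptor. Cish and Socs2 are SH2-domain proteins of the Socs family, switched on by Stat5 and inhibitory to the receptors.

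The members described here, Prlr, Ghr, Stat5a, Stat5b, Cish and Socs2, are 6 of the 52325 genes in a table of estimated counts, found by Ensembl identifier. The RNA came from breast tumour cells of C57BL/6 mice labelled C3-T; Elf5-GFP, a genotype that both groups share and that the labels do not spell out further. Digested tumours were depleted with antibodies to CD45, CD31 and TER119, and the rest was split by GFP, which stands for Elf5 in the group names. There were 2 Elf5-positive (GFP-positive) and 4 Elf5-negative (GFP-negative) libraries. No age, sex or treatment is given, and the labels do not say which libraries came from separate animals or tumours, so each p-value speaks of the spread among these libraries alone. Titles carry a code, T1 or T2, which the labels do not define. Both Elf5-positive libraries and Elf5-negative libraries 2 and 4 are T2, and Elf5-negative libraries 1 and 3 are T1.

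Library totals were 45145621 and 49563376 estimated counts in the Elf5-positive libraries, and 9106660 to 53694884 in the Elf5-negative ones, with the smallest in Elf5-negative library 4. The reporter gene Elf5 was at 77.7 and 137.0 CPM (the share of the library total as a count per 1e6, scaled with TMM factors) in the Elf5-positive libraries and at 6.93 to 24.7 CPM in the Elf5-negative ones. Its log2 fold change was 3.04 (edgeR adjusted p = 0.0165), and the adjusted p was 0.0573 to 0.0665 without Elf5-positive library 2, Elf5-negative library 1 or Elf5-negative library 3, and 0.270 in the T2 libraries. Luminal epithelial markers were present throughout. The 16 markers summed to 8205 and 6151 CPM in the Elf5-positive libraries and to 2101 to 3579 CPM in the Elf5-negative ones. Fibroblast markers, which the sorting antibodies do not remove, summed to 1225 and 771 CPM against 16621 to 49187 CPM. Elf5-negative libraries 1 and 2 also held skeletal muscle transcripts, at 193.7 and 35.3 CPM over 6 markers, against 4.32 and 6.14 CPM in the Elf5-positive libraries and 2.44 and 8.43 CPM in Elf5-negative libraries 3 and 4.

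The comparison asks whether the receptors, Stat5 factors and inhibitors upstream of Elf5 differed with Elf5 status. No member passed, that is, none had a Benjamini-Hochberg adjusted p below 0.05 in edgeR's quasi-likelihood test, against 4.37% of the 20684 genes tested. All 6 cleared the low-count filter, with 58 to 3861 counts per library. Stat5a was the one member with an unadjusted p under 0.05 and the one whose groups did not overlap, and 25.7% of all genes tested had no overlap. DESeq2 also called none of the 6, and by it 1.85% of all genes tested rose and 8.02% fell. Nor did limma-voom call any of them, where 180 genes were higher and 894 lower of the 20684 tested. The median log2 fold change of the members, Elf5-positive over Elf5-negative, was -0.01, beside 0.05 for all genes tested. In bulk libraries fewer cells of a type and less RNA per cell cannot be told apart.

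**Figure D1:**
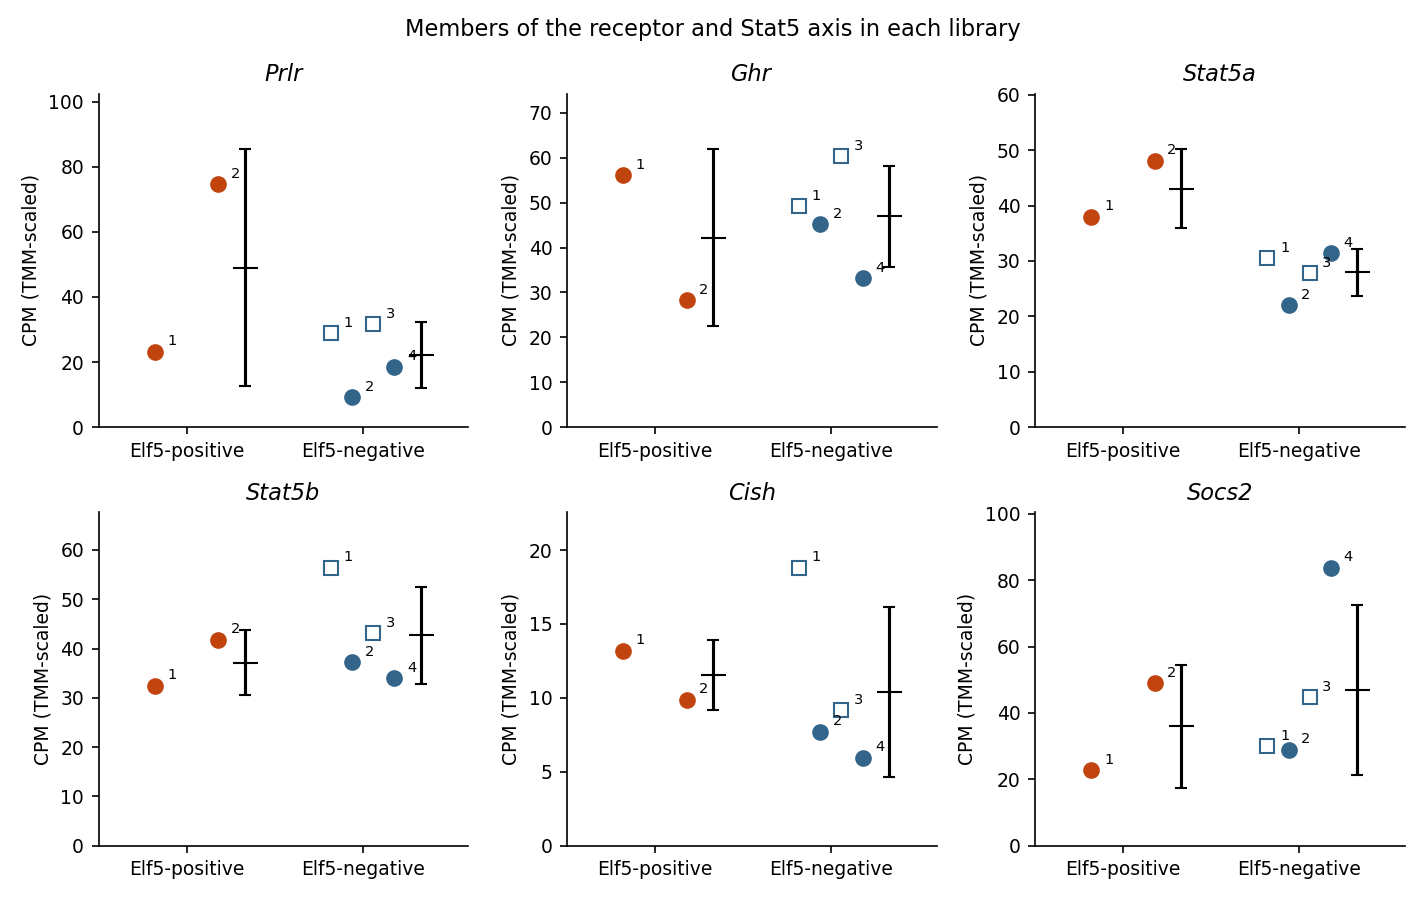
TMM-scaled CPM of each member (vertical axes, from 0) in the 2 Elf5-positive libraries (orange) and the 4 Elf5-negative libraries (blue). Filled circles are T2 and open squares T1 libraries, numbers are library numbers, and bars give the mean and SD of each group. Only in the Stat5a panel do both Elf5-positive libraries, at 38.0 and 48.1 CPM, lie above all 4 Elf5-negative ones, and the Prlr panel is spread most by Elf5-positive library 2 at 74.7 CPM.

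Prlr (ENSMUSG00000005268.20; chromosome 15, 10177238 to 10349180, plus strand, GRCm38) encodes the prolactin receptor. It was at 23.2 and 74.7 CPM in Elf5-positive libraries 1 and 2, and at 28.9, 9.27, 31.6 and 18.6 CPM in Elf5-negative libraries 1 to 4. Elf5-positive library 2 was the highest of the 6, while Elf5-positive library 1 lay among the Elf5-negative values. Prlr averaged 49.0 ± 36.4 CPM over the 2 Elf5-positive libraries and 22.1 ± 10.2 CPM over the 4 Elf5-negative ones (mean ± SD). The log2 fold change was 1.14 (SE 0.56), with a 95% interval of -0.15 to 2.43 (edgeR, adjusted p = 0.363). Without Elf5-positive library 2 it was 0.06. Scaling so that the luminal epithelial markers are level between libraries, which moves the median of all genes tested to -1.43, put it at -0.26. Among T2 libraries it was 1.83 (SE 0.70, adjusted p = 0.497), in a fit where no gene tested passed. There both Elf5-positive values lay above both Elf5-negative ones, but how many of all genes do so was not counted.

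Prlr is known in the normal gland from hormone-sensing luminal cells, and 7 markers of these cells were measured beside it. They summed to 260.1 and 246.7 CPM in the Elf5-positive libraries against 382.6 to 599.3 CPM in the Elf5-negative ones. None of the 7 passed in edgeR (3 were lower at an unadjusted p under 0.05, as were 2423 of the 20684 genes tested). The separation of the sums came from Ly6a, at 124.1 and 19.5 CPM in the Elf5-positive libraries against 193.1 to 433.7 CPM in the Elf5-negative ones. Without Ly6a, a choice made after the values were seen, the other 6 summed to 136.0 and 227.2 CPM against 119.7 to 205.9 CPM, and the groups overlapped. The part of these cells in the Prlr values was not tested. The oestrogen receptor gene Esr1 was at 4.34 and 5.17 CPM in the Elf5-positive libraries and at 6.21 to 14.8 CPM in the Elf5-negative ones, and the progesterone receptor gene Pgr at 0.99 and 0.97 CPM against 1.65 to 8.08 CPM. Of the 7 markers, 6 had negative log2 fold changes, with Foxa1 at -1.28, Cited1 at -1.50 and Areg at -0.10 among them. Only Prom1 had a positive one (0.94, edgeR adjusted p = 0.348). Prom1 was at 47.5 and 91.5 CPM against 21.5 to 54.6 CPM and, like Prlr, was highest in Elf5-positive library 2. Areg, at 76.8 and 127 CPM against 59.7 to 169 CPM, and Prom1 were the most abundant of the 6 left without Ly6a.

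Ghr (ENSMUSG00000055737.12; chromosome 15, 3317760 to 3583492, minus strand) encodes the growth hormone receptor. It was at 56.1 and 28.3 CPM in Elf5-positive libraries 1 and 2, and at 49.3, 45.3, 60.4 and 33.1 CPM in Elf5-negative libraries 1 to 4. The Elf5-positive libraries were the second highest and the lowest of the 6, so the groups overlapped. Ghr averaged 42.2 ± 19.7 CPM over the 2 Elf5-positive libraries and 47.0 ± 11.3 CPM over the 4 Elf5-negative ones (mean ± SD). The log2 fold change came to -0.16 (SE 0.34, 95% interval -0.95 to 0.64, edgeR adjusted p = 0.880). As a linear fold the interval runs from 0.517 to 1.56. Over the T2 libraries the value was 0.11, and without Elf5-positive library 2 it was 0.25. Scaled to luminal epithelial genes, Ghr was at -1.65 and passed (adjusted p = 0.00721), where 57.9% of all genes tested fell.

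Fibroblasts are a known site of Ghr expression. Of the 10 fibroblast markers 9 fell in edgeR, with a median log2 fold change of -4.75, and none was at 0 in the Elf5-positive libraries. Adipocytes are another known site, and their 7 markers summed to 22.6 and 8.30 CPM in the Elf5-positive libraries against 118.1 to 376.5 CPM in the Elf5-negative ones, with 1 that fell (Lpl). The defining markers were low in both groups. Adipoq, which encodes adiponectin, was at 0.02 and 0.17 CPM in the Elf5-positive libraries and at 0 to 0.82 CPM in the Elf5-negative ones, and Plin1, of the lipid droplet coat, at 0.13 and 0.33 CPM against 0.09 to 0.31 CPM, while Lep, of leptin, was at 0 in both Elf5-positive libraries. Summed fibroblast markers were at 1225 and 771 CPM in Elf5-positive libraries 1 and 2, with Ghr at 56.1 and 28.3 CPM. In Elf5-negative libraries 1 to 4 they were at 23828, 16621, 49187 and 17572 CPM, with Ghr at 49.3, 45.3, 60.4 and 33.1 CPM. The part of these cell types in the Ghr values was not tested.

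The balance of the receptors within a library does not depend on library scaling. The ratio of Prlr to Ghr estimated counts, not adjusted for transcript length, was 0.413 and 2.64 in Elf5-positive libraries 1 and 2, and 0.588, 0.205, 0.523 and 0.563 in Elf5-negative libraries 1 to 4. Elf5-positive library 2 was the only library with more Prlr than Ghr counts. The difference of mean log2 ratios, Elf5-positive minus Elf5-negative, was 1.27, and an exact two-sided permutation test over the 15 ways to choose 2 of the 6 libraries gave p = 0.333. This test cannot go below 0.0667. Without Elf5-positive library 2 the difference was -0.07, and in the T2 libraries it was 1.62 (exact permutation p = 0.667, where the test cannot go below 0.333).

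Stat5a (ENSMUSG00000004043.14; chromosome 11, 100859351 to 100885169, plus strand) and Stat5b (ENSMUSG00000020919.11; chromosome 11, 100780731 to 100850724, minus strand) lie head to head, 8626 bases apart. Stat5a is the form that the mammary gland is known to need for alveolar growth, and Stat5b is known for growth hormone signalling in the liver. Their coding sequences are 90.7% identical over 2343 aligned bases, with one exact run of 324 bases, and 20.2% of the 31-base words of coding transcripts of Stat5a also occur in those of Stat5b (GENCODE M21). Reads inside such runs are divided between the genes by model, so each count carries that uncertainty, while reads from unlike stretches tell the genes apart. The most unlike ungapped stretch of 60 coding bases is printed here, bases 85 to 144 from the start codon in both genes, with the 19 differing bases in capitals.
Stat5a: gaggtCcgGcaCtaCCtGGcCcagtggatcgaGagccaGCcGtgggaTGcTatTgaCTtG
Stat5b: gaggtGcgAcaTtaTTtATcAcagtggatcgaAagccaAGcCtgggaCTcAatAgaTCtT

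Stat5a was at 38.0 and 48.1 CPM in Elf5-positive libraries 1 and 2, and at 30.4, 22.1, 27.8 and 31.4 CPM in Elf5-negative libraries 1 to 4. Both Elf5-positive libraries lay above every Elf5-negative one, as 10.9% of all genes tested did. Stat5a averaged 43.0 ± 7.14 CPM over the 2 Elf5-positive libraries and 27.9 ± 4.19 CPM over the 4 Elf5-negative ones (mean ± SD). The log2 fold change came to 0.63 (SE 0.24, 95% interval 0.08 to 1.18, unadjusted p = 0.0307 and adjusted p = 0.224 in edgeR). Over the T2 libraries it was 0.70 (SE 0.33, adjusted p = 0.638), and scaled to luminal epithelial genes it was negative, at -0.85 (adjusted p = 0.0693). Its last 3' bases overlap Stat3 on the other strand, and whether reads were assigned by strand is not given in the sources used here. Stat3 was at 311 and 365 CPM against 233 to 324 CPM.

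Stat5b was at 32.5 and 41.8 CPM in Elf5-positive libraries 1 and 2, and at 56.4, 37.2, 43.1 and 34.0 CPM in Elf5-negative libraries 1 to 4. Here the groups overlapped, and the lowest of the 6 was Elf5-positive library 1. Stat5b averaged 37.2 ± 6.61 CPM over the 2 Elf5-positive libraries and 42.7 ± 9.89 CPM over the 4 Elf5-negative ones (mean ± SD). The log2 fold change came to -0.20 (SE 0.27, 95% interval -0.83 to 0.43, edgeR adjusted p = 0.790). Restricted to T2, it was 0.07. Scaled to luminal epithelial genes it was -1.69 and passed (adjusted p = 0.00878), where 57.9% of all genes tested fell.

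The balance of the Stat5 genes separated the sorts. Of the counts of both genes, Stat5a took 53.9% (exact 95% binomial interval 52.1 to 55.7%) in Elf5-positive library 1 and 53.5% (52.0 to 54.9%) in library 2. It took 35.1% (33.6 to 36.6%), 37.2% (35.0 to 39.4%), 39.2% (37.6 to 40.9%) and 48.0% (44.0 to 51.9%) in Elf5-negative libraries 1 to 4. Stat5a thus had more counts than Stat5b in both Elf5-positive libraries and fewer in all 4 Elf5-negative ones, though the interval of the shallow Elf5-negative library 4 reaches past an equal share. The counts were not adjusted for transcript length, so an equal share of counts does not mark an equal level of the 2 genes. The log2 ratio averaged 0.21 ± 0.02 (SD, n = 2) against -0.60 ± 0.34 (SD, n = 4), a difference of 0.81 or 1.75-fold. The exact two-sided permutation p was 0.0667, the smallest that 15 splits allow, so this design could not pass 0.05. Over the T2 libraries the difference was 0.65 (exact permutation p = 0.333), and with so few libraries this two-sided test could give no smaller p. The intervals cover counting error only, and not the division of shared reads.

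**Figure D2:**
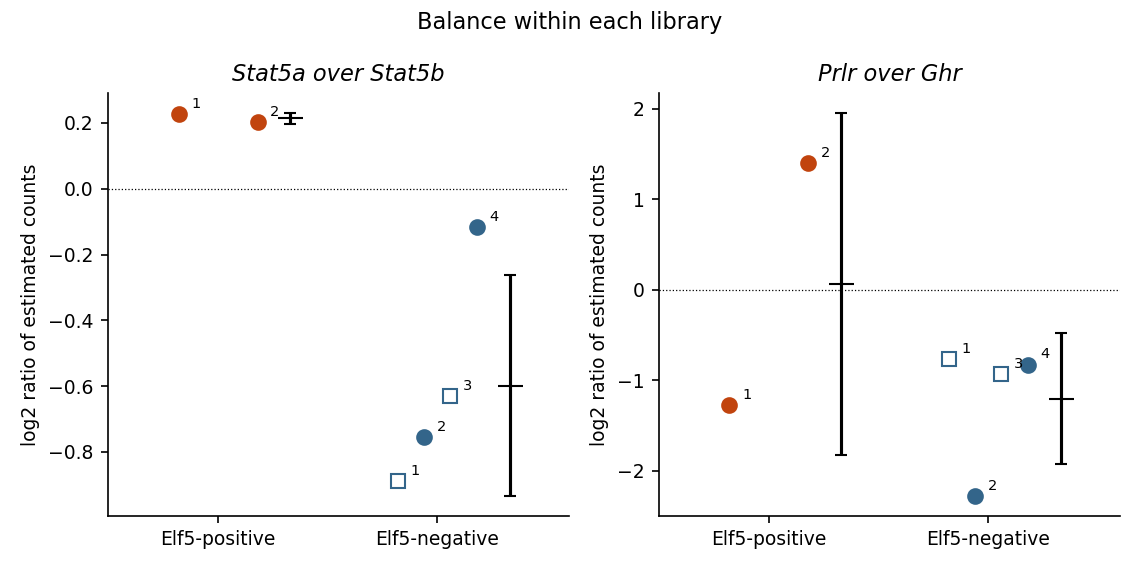
Log2 ratio of estimated counts of Stat5a over Stat5b (left) and of Prlr over Ghr (right) in each library, with the mean and SD of each group as bars; symbols as in the plot of member levels, and the dotted line marks equal counts. Both Elf5-positive libraries sit at 0.20 to 0.23 on the left and all 4 Elf5-negative ones below 0, whereas on the right Elf5-positive libraries 1 and 2 lie apart at -1.28 and 1.40.

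Cish (ENSMUSG00000032578.7; chromosome 9, 107296026 to 107302784, plus strand) is the classical Stat5 target among the members and a feedback inhibitor. Stat5 binds the palindrome TTCNNNGAA, which reads the same on both strands. This motif was searched in windows from 250 bases before to 50 after annotated starts (RefSeq, GRCm38.p6), of which 10 belong to 5 of the members. The Cish window, chr9:107296409-107296708 on the plus strand, is printed here because it holds the motif in tandem, in capitals, with 2 bases between.
Cish: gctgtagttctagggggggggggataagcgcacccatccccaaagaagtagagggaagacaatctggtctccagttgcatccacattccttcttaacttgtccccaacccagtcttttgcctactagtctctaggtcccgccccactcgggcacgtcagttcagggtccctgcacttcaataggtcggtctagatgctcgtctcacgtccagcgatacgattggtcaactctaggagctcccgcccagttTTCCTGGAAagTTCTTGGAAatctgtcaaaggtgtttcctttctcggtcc

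Among all 32851 windows 8.3% hold at least 1 such motif and 0.457% hold at least 2. One other window of a member holds it, an internal start of Prlr (chr15:10223656-10223955, plus strand), with TTCTAGGAA once. A match describes the letters only and is not a measured binding site.

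Cish was at 13.2 and 9.89 CPM in Elf5-positive libraries 1 and 2, and at 18.8, 7.72, 9.19 and 5.96 CPM in Elf5-negative libraries 1 to 4. It was the scarcest member by counts, with 58 in Elf5-negative library 4. The groups overlapped, and the highest library was Elf5-negative. Cish averaged 11.5 ± 2.34 CPM over the 2 Elf5-positive libraries and 10.4 ± 5.75 CPM over the 4 Elf5-negative ones (mean ± SD). The log2 fold change came to 0.14 (SE 0.48, 95% interval -0.97 to 1.25, edgeR adjusted p = 0.931). Scaled to luminal epithelial genes it was -1.42, and without Elf5-negative library 4 it was -0.03. Restricted to T2 libraries, it was 0.76 (SE 0.41, adjusted p = 0.720). There both Elf5-positive libraries lay above both Elf5-negative ones, but how many of all genes do so was not counted.

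Socs2 (ENSMUSG00000020027.18; chromosome 10, 95385362 to 95417180, minus strand) is the inhibitor best known for limiting growth hormone signalling. It was at 22.8 and 49.1 CPM in Elf5-positive libraries 1 and 2, and at 29.9, 28.9, 44.7 and 83.8 CPM in Elf5-negative libraries 1 to 4. The Elf5-positive libraries held the lowest and the second highest value, and Elf5-negative library 4 the highest. Socs2 averaged 35.9 ± 18.6 CPM over the 2 Elf5-positive libraries and 46.8 ± 25.7 CPM over the 4 Elf5-negative ones (mean ± SD). The log2 fold change came to -0.38 (SE 0.51, 95% interval -1.55 to 0.79, edgeR adjusted p = 0.789). Without Elf5-negative library 4 the log2 fold change was 0.08. Restricted to T2, it was -0.64. Scaled to luminal epithelial genes it was -1.79 and passed (adjusted p = 0.0176), where 57.9% of all genes tested fell. By title number, which the labels leave undefined, Socs2 did not overlap, with 22.8 to 29.9 CPM in Elf5-positive library 1 and Elf5-negative libraries 1 and 2, and 44.7 to 83.8 CPM in the other 3. It was 1 of 6 members to do so, noticed after the values were seen, and 16.9% of all genes tested did.

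Neither inhibitor had its highest level where Stat5a did. Cish was highest in Elf5-negative library 1 and Socs2 in Elf5-negative library 4, while Stat5a was highest in Elf5-positive library 2. In that library Socs2 was second highest, at 49.1 CPM. In Elf5-positive library 1, second highest for Stat5a, Cish was second highest, at 13.2 CPM, and Socs2 was lowest, at 22.8 CPM. Whether the inhibitors follow Stat5a over the libraries was not tested. Stat5 is activated by phosphorylation, which RNA levels do not report.

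Levels of different genes were compared per kilobase of the longest coding transcript in GENCODE M21. On this scale the order of mean levels in the Elf5-positive libraries was Socs2 (16.2 CPM per kb), Stat5a (11.1), Ghr (10.1), Stat5b (7.13), Prlr (4.95) and Cish (4.05). In the Elf5-negative libraries it was Socs2 (21.1), Ghr (11.3), Stat5b (8.19), Stat5a (7.18), Cish (3.66) and Prlr (2.23). In both groups the ranges of neighbours in this order overlapped, as with Stat5a at 5.68 to 8.07 and Cish at 2.09 to 6.60 CPM per kb in the Elf5-negative libraries. With all exons merged in place of the longest transcript the order in the Elf5-positive libraries was Stat5b (6.71 CPM per kb), Stat5a (6.04), Ghr (4.66), Socs2 (3.77), Prlr (3.19) and Cish (1.80). In the Elf5-negative libraries it was Stat5b (7.71), Ghr (5.19), Socs2 (4.92), Stat5a (3.92), Cish (1.62) and Prlr (1.44). The order, that of Stat5a and Stat5b in the Elf5-positive libraries included, thus depends on the length used.

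Spread among the Elf5-negative libraries differed between members. The coefficient of variation (SD over mean) was lowest for Stat5a, at 4.19 over 27.9 CPM, and was 23.2% for Stat5b and 24.0% for Ghr, and 46.3%, 54.8% and 55.1% for Prlr, Socs2 and Cish. The Elf5-positive libraries differed from each other by 3.22-fold in Prlr, 2.15-fold in Socs2 and 1.99-fold in Ghr, and by 1.27-fold to 1.34-fold in Stat5a, Stat5b and Cish. The Stat5 genes were thus the steadiest members in both sorts.

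**Figure D3:**
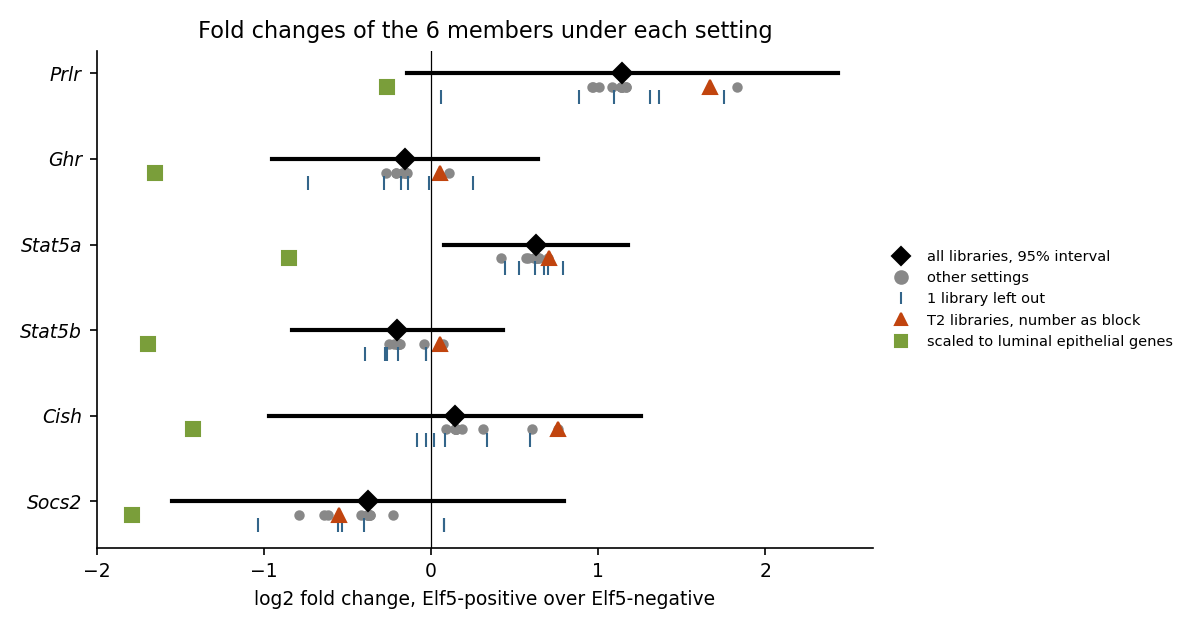
Log2 fold change of each member, Elf5-positive over Elf5-negative (horizontal axis), with all libraries (diamond, line for the 95% interval) and under every other setting. Scaling to luminal epithelial genes (green squares) puts all 6 below 0, between -1.79 and -0.26, and leaving out 1 library (blue ticks) moves Prlr between 0.06 and 1.75.

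The genes most alike in profile were those with the smallest root mean square difference of centred log2(CPM + 1) values over the 6 libraries. For Prlr these were Afap1l1 (0.154), Rasd1 (0.168) and Rtn1 (0.190), and for Stat5a Dcp1b (0.0864), Gtdc1 (0.0907) and Dleu2 (0.104). For Ghr they were Actr3b (0.0644), Zfp984 (0.0987) and Cdc42 (0.0992), and for Stat5b Ago4 (0.0685), Rnf170 (0.0807) and Rhot1 (0.0879). For Cish they were Neu1, Pde4c and Mettl3, and for Socs2 Chic1, Megf10 and Zfp438, at 0.150 to 0.183. Rasd1, for example, was at 43.4 and 123.9 CPM in the Elf5-positive libraries against 13.5 to 41.7 CPM in the Elf5-negative ones, and Megf10 reached 152.0 CPM in Elf5-negative library 4.

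Transcripts of the hormones themselves were all but undetected. Prl and Gh had 0 counts in both Elf5-positive libraries, which allows up to 0.0674 and 0.058 CPM, and among the Elf5-negative ones only library 1 had any, at 0.07 and 0.04 CPM. Both are pituitary hormones that reach the mammary gland through the blood.

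Of 15 signalling partners of the receptors none passed in edgeR, DESeq2 or limma-voom, beside 4.37% of all genes tested in edgeR. In edgeR 3 were lower at an unadjusted p under 0.05, as were 2423 of the 20684 genes tested. The list median of log2 fold change was -0.10 (-0.59 without Elf5-positive library 2), beside 0.05 for all genes. Scaled to luminal epithelial genes, 14 of the 15 and all 14 of the other inhibitors fell, where 57.9% of all genes tested fell. The receptor-bound kinase Jak2 was at 24.0 and 36.0 CPM in the Elf5-positive libraries and at 35.6 to 66.3 CPM in the Elf5-negative ones, with a log2 fold change of -0.77 and an SE of 0.33 (adjusted p = 0.296). Its relative Jak1, which serves interferon and interleukin receptors, was at 135 and 113 CPM against 183 to 327 CPM, and at -1.01 (SE 0.29, adjusted p = 0.108). Jak1 was thus lower without overlap, as 14.8% of all genes tested were. The docking protein gene Gab2 was at 8.44 and 12 CPM against 15.9 to 31.7 CPM (-1.12, adjusted p = 0.151), and the adaptor gene Shc1 had a log2 fold change of -0.44.

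Of 14 other inhibitors none passed either in edgeR, DESeq2 or limma-voom, beside 4.37% of all genes tested in edgeR. Of the 14, 7 lay on each side of 0. In edgeR 2 were lower at an unadjusted p under 0.05, beside 2423 of the 20684 genes tested. Socs3, the inhibitor of interleukin 6 signalling, was at 251 and 165 CPM in the Elf5-positive libraries against 316 to 566 CPM in the Elf5-negative ones, a log2 fold change of -1.05 and an SE of 0.33 (adjusted p = 0.134). Socs1, which curbs interferon signalling, was at 10.2 and 4.06 CPM against 10.5 to 20.8 CPM (-1.02, adjusted p = 0.338). Both were lower in the Elf5-positive libraries without overlap, as 14.8% of all genes tested were, while Cish and Socs2 overlapped. Pias3, a SUMO ligase that binds Stat3, and the adaptor gene Sh2b3 had log2 fold changes of -0.60 and -0.39.

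None of 4 other Stat genes passed in edgeR, DESeq2 or limma-voom, beside 4.37% of all genes tested in edgeR. None of the 4 had an unadjusted p under 0.05 in edgeR or groups without overlap, beside 25.7% of all genes tested without overlap. Stat3, which responds to interleukin 6 and drives involution of the gland, had a log2 fold change of 0.20 (-1.26 when scaled to luminal epithelial genes), and Stat2, of interferon signalling, and Stat6, of interleukin 4 signalling, had ones of -0.39 and -0.18, with a list median of -0.28 (-0.03 when Elf5-positive library 1 was left out, 0.02 when Elf5-negative library 1 was). Stat4, of interleukin 12 signalling, was at 0.02 and 0.25 CPM in the Elf5-positive libraries against 0.02 to 0.59 CPM in the Elf5-negative ones (-0.78, SE 1.33, adjusted p = 0.840).

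Among genes that growth hormone is known to switch on in the liver, Igf1 fell. This gene of insulin-like growth factor 1 was at 4.34 and 3.08 CPM in the Elf5-positive libraries and at 105, 56.1, 244 and 102 CPM in Elf5-negative libraries 1 to 4. The groups were far apart, with a log2 fold change of -5.10 and an SE of 0.69 (edgeR adjusted p = 0.0122), and 3.79% of all genes tested fell. The summed fibroblast markers moved with it and were highest in the same library, Elf5-negative library 3, and fibroblasts are a known source of Igf1. Their part in the result was not tested. Igf1 was at -4.88 without Elf5-positive library 2. In the T2 libraries alone, where no gene tested passed, Igf1 was at -4.41 (edgeR adjusted p = 0.0838). Igfals and Igfbp3, which encode proteins that carry it in blood, had log2 fold changes of 1.33 (adjusted p = 0.393, and -0.18 scaled to luminal epithelial genes) and -0.65 (adjusted p = 0.632).

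**Figure D4:**
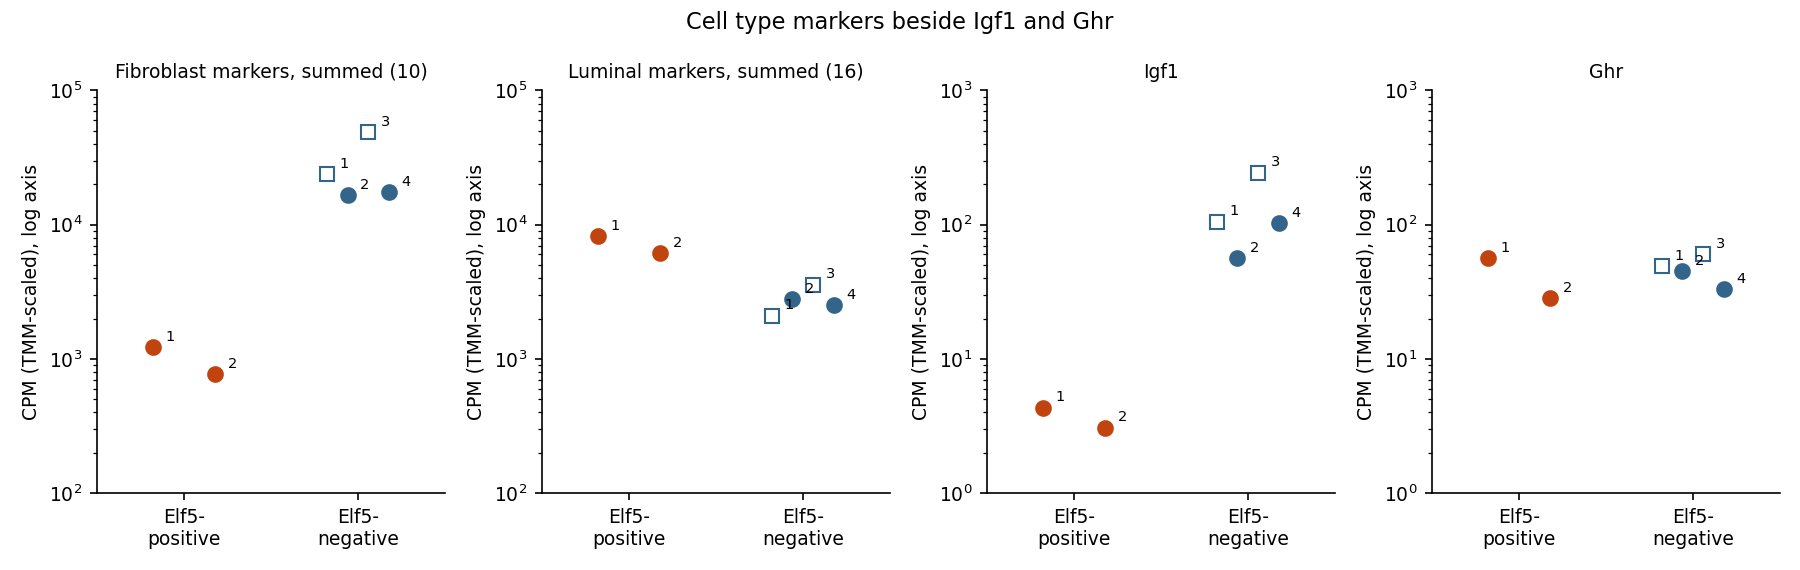
Summed CPM of 10 fibroblast and 16 luminal epithelial markers, and CPM of Igf1 and Ghr, in each library on logarithmic axes that each span 3 decades; symbols as in the plot of member levels. Igf1, at 4.34 and 3.08 CPM in the Elf5-positive libraries against 56.1 to 244 CPM, is separated between the groups as the fibroblast markers are, and Ghr, at 28.3 to 60.4 CPM in all 6, is not.

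Of 19 genes known as Stat5 targets in mammary epithelium or blood cells, 1 rose, and that was Elf5 itself, on whose reporter the cells were sorted (0.585% of all genes tested rose). The median log2 fold change was 0.26, and 13 of the 19 had a positive value, but without Elf5-positive library 1 the median was -0.47 and without Elf5-negative library 4 it was 0.02. Scaled to luminal epithelial genes the median was -1.39, and Bcl2l1 and Id2, positive otherwise, were at -0.68 and -0.59. Bcl2l1, which encodes the survival protein Bcl-xL, was at 126 and 114 CPM in the Elf5-positive libraries against 59.6 to 75.4 CPM in the Elf5-negative ones. Its log2 fold change was 0.79 with an SE of 0.20 (edgeR adjusted p = 0.0748). It was higher without overlap, as 10.9% of all genes tested were. It passed with DESeq2 (adjusted p = 0.0432), by which 1.85% of all genes rose and 8.02% fell. Id2, an inhibitor of helix-loop-helix factors that alveolar growth needs, was at 122 and 235 CPM against 83.2 to 120 CPM (0.86, SE 0.30, adjusted p = 0.188). Tnfsf11, the gene of RANKL, a paracrine signal of hormone-sensing cells, was at 1.17 and 0.25 CPM against 1.72 to 15.3 CPM (-3.64, SE 1.06, adjusted p = 0.111), and it passed with DESeq2 (adjusted p = 2.5e-04).

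Of 15 other receptors that can signal through Stat5 and were tested, 2 fell in edgeR, beside 3.79% of all genes tested. At an unadjusted p under 0.05 in edgeR, 7 of the 15 were lower, beside 2423 of the 20684 genes tested. Negative log2 fold changes were found in 14, and the list median was -1.31. Il3ra, the interleukin 3 receptor alpha chain, was at 5.13 and 3.35 CPM in the Elf5-positive libraries against 17.9 to 22.8 CPM in the Elf5-negative ones, a log2 fold change of -2.25 and an SE of 0.32 (edgeR adjusted p = 0.0132). Egfr, the epidermal growth factor receptor, was at 27.9 and 33.4 CPM against 67.3 to 146 CPM (-1.74, SE 0.39, adjusted p = 0.0499). The interleukin 2 receptor gene Il2ra and the leptin receptor gene Lepr had log2 fold changes of -1.80 and -1.82 (adjusted p = 0.143 and 0.183). They were lower without overlap, as 14.8% of all genes tested were. Both passed with DESeq2 (adjusted p = 0.0222 and 0.0263), by which 4 of the 15 fell. Prlr and Ghr, which belong to the same receptor class as Lepr, overlapped.

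The call of Egfr lay at the threshold, and that of Il3ra did not hold in every setting. Il3ra passed without any single Elf5-negative library (edgeR adjusted p = 0.0198 to 0.0484) and with DESeq2 (adjusted p = 3.7e-09). With counts thinned to the smallest total it did not pass (edgeR adjusted p = 0.0774). Without Elf5-positive library 2 Il3ra was at -1.98. In the T2 libraries alone, where no gene tested passed, Il3ra had an edgeR adjusted p of 0.170 and Egfr was at -1.17 (adjusted p = 0.223). Without Elf5-negative libraries 1 and 2 neither passed (0.123 and 0.190). Egfr passed without Elf5-negative library 4 (adjusted p = 0.0386) and not without any of the other 5 libraries (0.0517 to 0.156). Fibroblast markers moved with both genes, as given above, and so did the 7 endothelial markers, of which 3 fell, with sums of 33.7 and 11.6 CPM in the Elf5-positive libraries against 56.8 to 126.6 CPM. Pericyte and smooth muscle markers, of which 4 of 6 fell, summed to 94.1 and 92.7 CPM against 451.5 to 1240.2 CPM. None of these markers was at 0 in both Elf5-positive libraries. Their part in the receptor values was not tested.

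**Figure D5:**
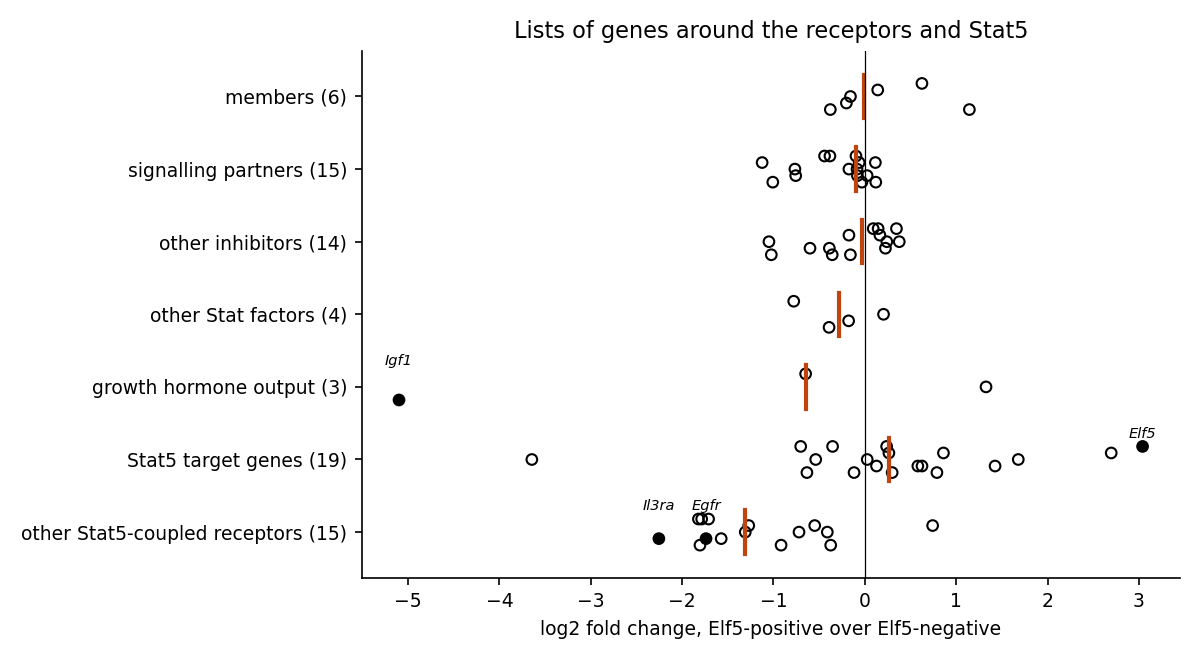
Log2 fold change, Elf5-positive over Elf5-negative (horizontal axis), of every tested gene in each list, with the number tested in brackets. Filled points passed in edgeR and are named, and orange bars are list medians: the 6 members lie around -0.01, and the other Stat5-coupled receptors around -1.31.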

How the data were processed

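The authors deposited estimated counts (expected counts) per Ensembl gene, and the submitters' processing notes name Salmon and GRCm38.p5. Which version and annotation were used, and how transcripts were summed, is not given there. The values were already whole, so rounding changed none. Symbols were matched for 52220 IDs, and where several shared one, the ID with most counts took it (77 others did not). Coordinates are from GENCODE M21 (GRCm38).

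Genes were filtered with filterByExpr, which left 20684, scaled with TMM factors and tested with edgeR 4.0.16 (R 4.3.3) on group alone, with adjustment over all genes. Standard errors are the log2 fold change over the root of F, and 95% intervals use the moderated degrees of freedom. The test was checked on simulated counts. Ratios within a library used counts plus 0.5. Alternatives used limma 3.58.1, DESeq2 1.42.0, other scalings and filters (a CPM of at least 1 in at least 2 libraries, or none), thinned counts, subsets of libraries and the title number as a block. Sequences were compared with Biopython 1.88. Figures used matplotlib 3.10.9.

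The named genes were the 6 members, Elf5, and of each other list the genes that passed and up to 4 of smallest p. The 3 most alike genes per member were taken above a mean log2 CPM of 1, without predicted or unnamed genes. Esr1, Pgr, Foxa1, Prom1, Cited1, Areg, Ly6a, Adipoq, Plin1, Lep, Lpl, Prl and Gh were named from the marker and ligand lists besides. The milk protein genes Csn2, Csn1s1, Csn1s2a, Csn3, Lalba and Wap, of the Stat5 target list, were named after the values were seen. Members and lists were chosen with earlier results of these data known. One gene of the list of other Stat factors is not reported here.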

Additional observations from a re-analysis of the deposited data

Results flagged for a closer look

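Of 42 values examined over the Elf5-negative libraries, 2 stood out because a single library was distant from its 3 fellows. The measure was the distance to the closest library as a share of the range, and chance alone marks about 1 in 20 groups. For the log2 ratio of Prlr to Ghr, Elf5-negative library 2 was at -2.29 and its fellows at -0.93 to -0.77, which gives 0.89. In that library Prlr was at 9.27 CPM, the lowest of all 6, while Ghr was at 45.3 CPM. For the 7 hormone-sensing luminal markers, Elf5-negative library 3 summed to 599.3 CPM and its fellows to 382.6 to 415.5 CPM, which gives 0.849. Ly6a alone made up 433.7 CPM of that sum, and without it the 4 libraries were at 119.7, 205.9, 165.6 and 194.7 CPM, which gives 0.532.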

How the results depend on the processing

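Under 19 other settings no member passed, except with scaling to luminal epithelial genes and in the T2 libraries with the title number as a block. Scaling to luminal epithelial genes moved the median over all genes to -1.43 (0.05 with TMM) and called 18 genes higher and 11984 lower (57.9% of all genes tested). There Ghr (-1.65), Stat5b (-1.69) and Socs2 (-1.79) passed as lower, and Prlr (-0.26), Stat5a (-0.85) and Cish (-1.42) turned negative without passing. Stat3 (-1.26), Igfals (-0.18), Bcl2l1 (-0.68) and Id2 (-0.59) also turned negative. Ratios within a library are free of this choice.

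The labels do not define the title number, so it was treated as a shared number only. Over 20684 genes the difference between the Elf5-positive libraries correlated with that between the same-numbered T2 Elf5-negative libraries (r = 0.599, across genes, which are not independent replicates), and for the T1 against the T2 Elf5-negative libraries r was 0.065. With the title number as a block in all libraries 252 genes were higher and 1011 lower, and no member passed. In the T2 libraries with this block Prlr passed (1.67, adjusted p = 0.0166), Ghr (0.054) and Stat5b (0.053) did not, and 549 genes were higher and 1368 lower. Elf5 (adjusted p = 0.00601), Igf1 (0.00531), Il3ra (0.0107) and Egfr (0.016) passed there too. In the T2 libraries without it edgeR called 0 and 0 (469 and 1463 at an unadjusted p under 0.05), and Ghr and Stat5b were at 0.11 and 0.068.

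Genes higher and lower numbered 121 and 783 with all libraries in edgeR, 273 and 1331 with no low-count filter, 401 and 1735 with DESeq2, and 0 and 75 in edgeR without Elf5-negative libraries 1 and 2 (539 and 1657 at an unadjusted p under 0.05). With 1 library left out they numbered 25 to 133 and 197 to 811, a lone Elf5-positive library being assumed to vary like the others. The log2 fold changes then ran from 0.06 to 1.75 for Prlr, -0.74 to 0.25 for Ghr, 0.44 to 0.79 for Stat5a, -0.40 to -0.03 for Stat5b, -0.083 to 0.59 for Cish and -1.03 to 0.076 for Socs2, with no call, and from -3.23 to 0.65 for the scarce Stat4 (0.39 without Elf5-negative libraries 1 and 2). The log2 ratio difference ran from -0.071 to 2.61 for Prlr to Ghr and from 0.71 to 0.97 for Stat5a to Stat5b. With counts thinned to the smallest total the Stat5a to Stat5b difference was 0.67 (exact permutation p = 0.133). The cause of these shifts was not tested. Without Ly6a, left out after the data were seen, the difference of mean summed hormone-sensing markers was 10.1 CPM, against -192.9 CPM with it. Elf5-negative library 4, with 9106660 counts in all, had the fewest counts of Cish, 58.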

Other observations

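Some milk protein genes, like Socs2, separated the libraries by title number, a pattern noticed after the values were seen and given without a test. One number belongs to Elf5-positive library 1 and Elf5-negative libraries 1 and 2, and the other to Elf5-positive library 2 and Elf5-negative libraries 3 and 4. Milk protein genes are the best known mammary targets of Stat5, and 3 of 6 ran the opposite way to Socs2, where 16.9% of all genes tested separate by number in either direction. Csn2, of beta-casein, was at 8.10 to 83.1 CPM in the first 3 libraries and at 0.24 to 2.06 CPM in the others. Csn1s2a was at 5.77 to 41.5 against 0.10 to 0.91 CPM and Lalba, of alpha-lactalbumin, at 0.79 to 6.07 against 0.16 to 0.62 CPM. By sort, Csn2, Csn1s2a, Lalba and Wap overlapped. Csn1s1 separated the sorts narrowly, at 69.2 and 362 CPM in the Elf5-positive libraries against 0.997 to 66.7 CPM in the Elf5-negative ones (log2 fold change 2.70, edgeR adjusted p = 0.336). Of all genes tested, 10.9% were higher without overlap. Csn3 overlapped either way, and Csn1s1 and Csn3 were both highest in Elf5-positive library 2, at 362 and 315 CPM. Wap was at most 1.66 CPM in any library.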
